A study of Mus musculus with 12 samples.

Results

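MMERVK10C and RLTR10 are named groups of mouse endogenous retroviruses (ERVs), and the RNA read from them was followed here across 4 groups of embryonic stem cells (ESCs). All repeat classes whose name contains ERVK10 or starts with RLTR10 were taken, which gave 9 of the 1217 classes in the deposited repeat table. They were the 2 internal regions MMERVK10C-int and RLTR10-int and the 7 long terminal repeats (LTRs) RLTR10, RLTR10A, RLTR10B, RLTR10B2, RLTR10C, RLTR10D and RLTR10E. All 9 passed the filter on low values, as did 939 classes in total.

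ERVs are remnants of retroviruses that entered the germline, and an intact copy has an internal region, with the genes for the viral core and enzymes, between 2 LTRs. The upstream LTR holds the promoter and the downstream LTR the signal that ends the transcript, while many copies in the genome are single LTRs left after recombination. MMERVK10C belongs to the ERVK group, together with the intracisternal A particles (IAPs) and the ETn/MusD elements. In ESCs such elements are known to be held silent by TRIM28, a corepressor that zinc finger proteins bring to them, and by SETDB1, which trimethylates lysine 9 of histone H3 there. DNA methylation adds to this silencing, and TET enzymes oxidise methylated cytosine.

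All 12 libraries came from *Tet2* KO ESCs grown without feeders and transduced with an shRNA against *Setdb1* (shSetdb1). The cells stably carried a PiggyBac construct for WT TET2 or for a catalytic mutant with the changes H1304Y and D1306A, and each line was grown in 2i (naïve ESCs) or in serum (primed ESCs). The 4 groups of 3 libraries are called WT naïve, mutant naïve, WT primed and mutant primed. The 2i medium holds inhibitors of MEK and GSK3 and no serum, and both media held LIF. Because cells given a control shRNA are not analysed here, no value below measures the response to SETDB1 loss. Whether a rescue line is 1 clone was not given in the sources used here, so a difference between lines and one between constructs cannot be told apart. The knockdown target *Setdb1* had 114 to 585 reads per library, and *Tet2* was higher with the WT construct, by 2.00 on the log2 scale averaged over both media (limma, adjusted p = 0.000342). These counts do not separate construct reads from reads of the endogenous *Tet2* locus.

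The study's own primers show how the internal region and its LTR lie together, so 4 sequences of the mm9 genome are printed here. The primer pair that the study used for MMERVK10C transcripts, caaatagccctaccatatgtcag and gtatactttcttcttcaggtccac, found 102 exact amplicons, of which 97 had a length of 132 bases. The commonest internal sequence was shared by 20 loci. The LTR primers were designed for bisulphite-converted RLTR10C, aggtttagtgtataattaat and ctacaacaaaatccttctac without their adapters, and found 738 amplicons, of which 663 were 140 bases long. One copy on chromosome 1 carries both. Its internal amplicon at chr1:181586594-181586725 (mm9, plus strand) is shown with the 2 primer sites in capitals, and its LTR amplicons at chr1:181584429-181584568 and chr1:181591054-181591193 (both plus strand) with TATAAA and AATAAA in capitals. The last line is the commonest RLTR10C amplicon, shown at chr1:114727403-114727542 (plus strand). All 4 lie outside annotated genes.
MMERVK10C internal amplicon: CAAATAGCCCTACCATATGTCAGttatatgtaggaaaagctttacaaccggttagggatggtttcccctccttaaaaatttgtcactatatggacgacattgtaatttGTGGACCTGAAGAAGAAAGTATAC
RLTR10C amplicon, upstream LTR: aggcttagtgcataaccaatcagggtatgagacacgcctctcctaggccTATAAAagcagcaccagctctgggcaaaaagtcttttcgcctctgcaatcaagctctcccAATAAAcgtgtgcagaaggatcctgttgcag
RLTR10C amplicon, downstream LTR: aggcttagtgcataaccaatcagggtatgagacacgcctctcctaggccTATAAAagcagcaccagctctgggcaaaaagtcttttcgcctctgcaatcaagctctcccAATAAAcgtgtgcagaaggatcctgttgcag
RLTR10C amplicon, commonest: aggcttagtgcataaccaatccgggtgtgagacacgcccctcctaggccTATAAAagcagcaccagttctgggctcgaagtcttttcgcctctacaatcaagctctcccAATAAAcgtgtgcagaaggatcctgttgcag

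The 2 LTR amplicons of this copy had 0 differences between them, and each differed from the commonest RLTR10C amplicon at 8 positions. They hold 3 CpG sites each, against 5 in the commonest amplicon and 2 in the internal one. Across the genome 60 of the 102 internal amplicons had an RLTR10C amplicon on the same strand within 12000 bases, and 55 (53.9%) had one on both sides. The distances fell in narrow ranges, with a median of 2243 bases to the upstream LTR and 4427 bases to the downstream LTR, measured between the lower coordinates of the amplicons. Of 56 upstream distances 48 lay between 1500 and 3000 bases, and of 59 downstream distances 58 lay between 3000 and 5500 bases. Seen from the LTRs, 114 of the 738 RLTR10C amplicons (15.4%) were near an internal amplicon. The sequence of the LTRs printed for the copy on chromosome 1 occurred at 65 loci, of which 52 were near an internal amplicon, whereas 0 of the 91 loci with the commonest RLTR10C sequence were.

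**Figure D1:**
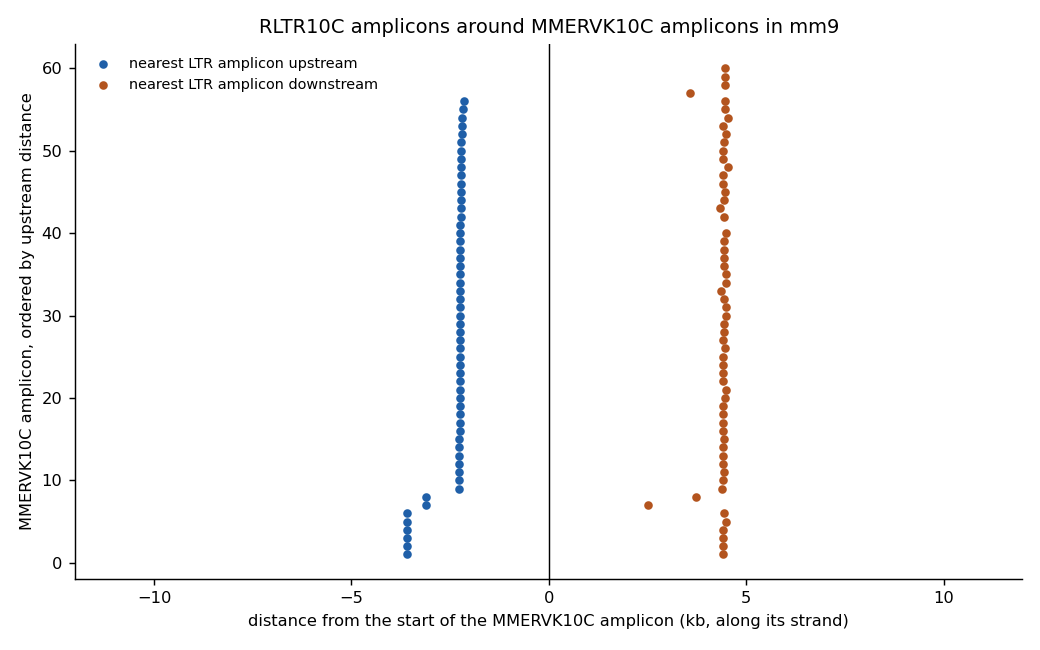
Distance in kb (x axis) from each MMERVK10C amplicon to the nearest RLTR10C amplicon upstream (blue) and downstream (orange) along its strand in mm9, for the 60 internal amplicons that have one within 12 kb, ordered by upstream distance (y axis). The points fall in 2 columns, with medians of 2243 bases upstream and 4427 bases downstream, and a second small column upstream.

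TATAAA, the letters of a TATA box, was present on either strand in 550 RLTR10C amplicons (74.5%) and in 0 of the 102 internal amplicons. AATAAA, the letters of a polyadenylation signal, was present in 726 RLTR10C amplicons (98.4%) and in 0 internal amplicons. Among 32851 RefSeq promoter windows of 140 bases (GRCm38.p6) the shares were 6.51% and 8.07%. These matches describe the letters only. Of the internal amplicons 0 overlapped an exon of the mm9 annotation, 13 lay in introns and 89 outside genes, and for RLTR10C the numbers were 9, 139 and 590. The RepeatMasker class that the authors' counting gave to each amplicon was not analysed here, and all copies of a class are pooled in the values that follow.

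The deposited values are log2 values after a variance-stabilising transformation, and values of different classes are not compared as levels because lengths were not used. Repeat reads per library ranged from 3156928 to 13718028, of which 37.7% to 88.1% fell in 2 ribosomal RNA classes. The 9 classes together took 5381 to 23873 reads per library. In each of the 4 groups the library numbered 3 had the smallest share of ribosomal reads and the lowest ratio of the authors' size factor to the median-of-ratios factor of the same reads, with ratios of 0.654 to 1.21 over all libraries. In the same libraries the deposited values of the 9 classes ran high. The library numbered 3 was the highest of its group in 7 of 9 classes in WT naïve, 7 in mutant naïve, 9 in WT primed and 8 in mutant primed. With the reads rescaled by median-of-ratios factors these counts were 2, 2, 4 and 2. Results that depend on this scaling are given on both scales below. The 4 ESC markers *Pou5f1*, *Sox2*, *Nanog* and *Zfp42* were read in all groups, at a summed 2625 to 3681 reads per 1000000 gene reads (RPM). Of 3 fibroblast genes *Col1a2* had 0 reads in every group, whereas *Col1a1* had 13 to 18 and *Thy1* 30 to 246 reads per group.

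MMERVK10C-int, the internal region with the genes of the MMERVK10C element, had the most reads of the 9 classes, 3027 to 14220 per library. Its deposited values were 12.53, 12.33 and 13.37 in WT naïve and 11.92, 12.14 and 12.53 in mutant naïve libraries 1, 2 and 3. In WT primed they were 12.49, 12.56 and 13.05, and in mutant primed 11.80, 12.68 and 13.27. As deposited, the groups overlapped in every comparison, and the mutant primed libraries alone spanned most of the range. Naïve minus primed was 0.05 with WT TET2 (95% interval -0.66 to 0.75) and -0.39 with mutant TET2 (95% interval -1.10 to 0.32), with an adjusted p from limma of 0.990 and 0.932. By an exact permutation test (two-sided, as all such tests here) p was 0.9 and 0.5, where 3 libraries against 3 cannot go below 0.1. A level 2-fold lower in naïve ESCs lies inside the interval of the mutant line, so the deposited values cannot separate it from no difference. The difference in the mutant line was -0.047 without mutant primed library 3 and -0.78 without mutant primed library 1. Rescaled by median-of-ratios factors the difference in the WT line was -0.04, so its sign is not fixed. In the mutant line the rescaled difference was -0.36 with a smaller standard error, 0.17 against 0.34 as deposited (limma, adjusted p = 0.243).

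The LTR class RLTR10C, whose values pool all its copies, followed a like course. Its values were 9.33, 9.32 and 10.15 in WT naïve, 9.02, 9.09 and 9.64 in mutant naïve, 9.62, 9.52 and 9.93 in WT primed and 9.21, 9.79 and 10.04 in mutant primed. All groups overlapped. Naïve minus primed was -0.09 in the WT line and -0.43 in the mutant line, with p = 0.8 and p = 0.2 by the exact permutation test and an adjusted p from limma of 0.973 and 0.813. Averaged over both lines it was -0.26 (limma, adjusted p = 0.626). The same average was -0.30 with an adjusted p of 0.0463 on median-of-ratios factors, and it was under 0.05 in 4 of 24 settings, always below the 2-fold limit of a call.

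**Figure D2:**
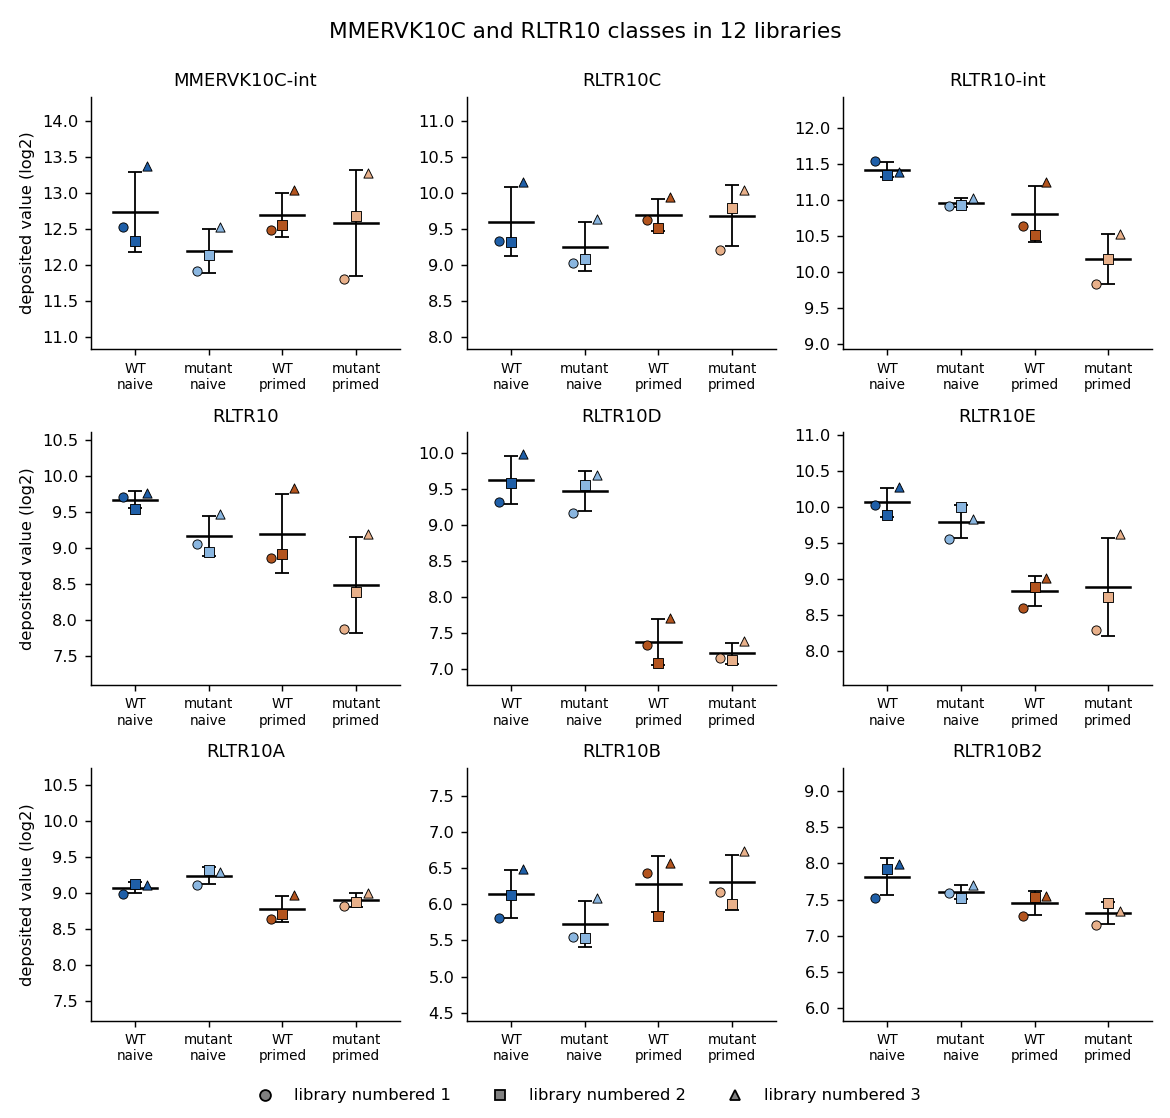
Deposited log2 values (y axis, each panel spanning 3.5 units) of the 9 classes in the 4 groups, with 1 point per library, the shape giving the replicate number, the long bar the mean and the whiskers the SD (n = 3). RLTR10D and RLTR10E show the naïve groups above the primed groups, while MMERVK10C-int and RLTR10C overlap in all groups, with triangles (libraries numbered 3) mostly on top.

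RLTR10D and RLTR10E were higher in naïve than in primed ESCs, and RLTR10D most of all. RLTR10D is an LTR class with 107 to 1220 reads per library. It had values of 9.31, 9.57 and 9.97 in WT naïve and 9.16, 9.56 and 9.68 in mutant naïve libraries, against 7.33, 7.09 and 7.71 in WT primed and 7.15, 7.12 and 7.39 in mutant primed. Every naïve library lay above every primed one. The differences were 2.24 with WT TET2 (95% interval 1.66 to 2.83, limma, adjusted p = 3.04e-05) and 2.25 with mutant TET2 (95% interval 1.66 to 2.84, limma, adjusted p = 1.96e-05), that is 4.74-fold and 4.76-fold. Over both lines the exact permutation test within lines gave p = 0.005, the smallest its 400 arrangements allow. RLTR10D was called in all 25 settings tried for each line, with differences of 2.07 to 2.41 with WT and 2.14 to 2.40 with mutant TET2. Among the 939 classes, 2.34% were called between media with WT TET2, 3.41% with mutant TET2 and 4.05% over both lines, where a call is an adjusted p under 0.05 and a difference over 1.

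RLTR10E, another LTR class, had 257 to 1357 reads per library. Its values were 10.03, 9.90 and 10.28 in WT naïve and 9.56, 10.01 and 9.84 in mutant naïve libraries. In WT primed they were 8.61, 8.89 and 9.02, and in mutant primed 8.29, 8.75 and 9.63. The WT groups did not overlap, whereas mutant primed library 3 lay above mutant naïve library 1. The difference was 1.23 with WT TET2 (95% interval 0.60 to 1.86, limma, adjusted p = 0.0288), 0.91 with mutant TET2 (95% interval 0.28 to 1.54, limma, adjusted p = 0.140) and 1.07 over both (limma, adjusted p = 0.00172). Leaving out any 1 WT library took the adjusted p from limma in the WT line to between 0.0560 and 0.225, and without mutant primed library 3 the difference in the mutant line was 1.28 (limma, adjusted p = 0.00330). Without all 4 libraries numbered 3 RLTR10E was called in both lines, at 1.21 and 1.26. The lines were not shown to differ, since WT minus mutant in naïve minus that in primed ESCs was 0.32 for RLTR10E and -0.0047 for RLTR10D (limma, adjusted p = 0.998 each).

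RLTR10-int and RLTR10 form a second internal region and LTR of the same naming group. RLTR10-int had values of 11.53, 11.34 and 11.38 in WT naïve, 10.92, 10.92 and 11.03 in mutant naïve, 10.63, 10.52 and 11.25 in WT primed and 9.83, 10.18 and 10.52 in mutant primed libraries. As deposited, within each line every naïve library lay above every primed library, and the mutant primed group was lowest. Rescaled by median-of-ratios factors, WT naïve library 3 at 10.845 lay below WT primed library 3 at 10.969. Naïve minus primed was 0.62 with WT TET2, 0.78 with mutant TET2 and 0.70 over both lines (95% interval 0.30 to 1.09, limma, adjusted p = 0.0227). That average passed the adjusted p but stayed below the 2-fold limit, and it kept an adjusted p under 0.05 in 17 of 24 settings. RLTR10 had values of 9.72, 9.54 and 9.77 in WT naïve, 9.06, 8.95 and 9.48 in mutant naïve, 8.86, 8.91 and 9.84 in WT primed and 7.88, 8.39 and 9.20 in mutant primed. Here WT primed library 3 was above all 3 WT naïve libraries. The average difference between media was 0.57 (limma, adjusted p = 0.174), with an adjusted p under 0.05 in 8 of 24 settings. Mutant primed library 3 decided the call in the mutant line, where the difference was 0.67 with it (limma, adjusted p = 0.520) and 1.03 without it (limma, adjusted p = 0.0475).

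None of the 3 remaining LTR classes was called between media. RLTR10A, with 289 to 931 reads, was 8.99, 9.13 and 9.12 in WT naïve, 9.11, 9.32 and 9.30 in mutant naïve, 8.65, 8.72 and 8.98 in WT primed and 8.83, 8.88 and 9.01 in mutant primed libraries. As deposited, its naïve libraries lay just above the primed ones in both lines, by 0.30 and 0.34 (limma, adjusted p = 0.845 and 0.855). RLTR10B2 ranged from 7.15 to 7.99 and had differences of 0.36 and 0.29 (limma, adjusted p = 0.804 and 0.971). RLTR10B, copies of which act as enhancers in male germ cells, was the class with the fewest reads, 34 to 141 per library, and ranged from 5.54 to 6.74. Its differences were -0.14 and -0.58 (limma, adjusted p = 0.973 and 0.646), and the 95% interval in the mutant line, -1.26 to 0.09, includes a 2-fold lower level in naïve ESCs.

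Between media 2 of the 9 classes were thus called in the WT line, 1 in the mutant line and 2 over both. In 4 of the 9 classes the naïve and primed libraries of the WT line did not overlap (RLTR10-int, RLTR10A, RLTR10D and RLTR10E), against 14.4% of all 939 classes. In the mutant line 4 did not overlap (RLTR10-int, RLTR10A, RLTR10B2 and RLTR10D), against 11.4%. Both counts are of deposited values. Rescaled by median-of-ratios factors, RLTR10-int and RLTR10A overlapped in the WT line, and RLTR10A and RLTR10B2 in the mutant line. RLTR10C then lay lower without overlap in naïve ESCs of both lines, and RLTR10B in the mutant line. In the mutant line RLTR10 and RLTR10E also lay higher without overlap. The share over all classes was not counted on that scale. The 9 classes had a median difference of 0.36 in the WT line and 0.34 in the mutant line, and all tested classes one of 0.06 and -0.04. The 9 classes did not move as a block, since 6 were higher and 3 (MMERVK10C-int, RLTR10B and RLTR10C) lower in naïve ESCs over both lines, on the deposited and on the rescaled reads.

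**Figure D3:**
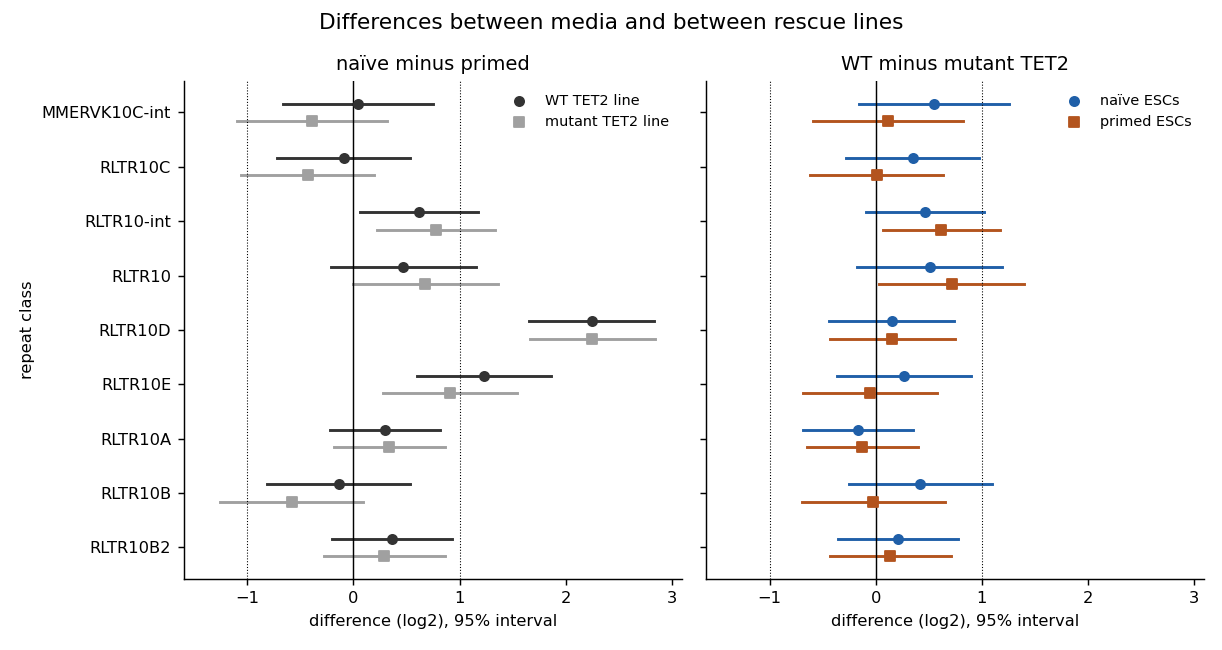
Differences on the log2 scale (x axis) with 95% intervals from limma for the 9 classes (y axis), naïve minus primed in each rescue line (left) and WT minus mutant in each medium (right), with dotted lines at the limit of 1 used for calls. RLTR10D at 2.24 and 2.25 and RLTR10E at 1.23 and 0.91 stand to the right of the other classes between media, and no class reaches 1 between rescue lines.

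WT TET2 was compared with the catalytic mutant to ask whether the classes differ with the catalytic activity of TET2 in cells depleted of SETDB1. *Tet2* RNA also differed between these lines, being higher with WT TET2 by 2.16 in naïve and 1.84 in primed ESCs. The study reported similar amounts of both TET2 proteins by Western blot. None of the 9 classes was called, in naïve ESCs (0% of 939 classes called), in primed ESCs (0.319%) or over both media (0.319%), with a call as defined for the media. At an unadjusted p under 0.05 limma on the deposited values gave 0 of the 9 in naïve ESCs (1.81% of all 939 classes), 2 in primed ESCs (2.13%) and 2 over both media (3.73%), each time RLTR10 and RLTR10-int. The interaction between line and medium called 0 classes (0% of 939), and 0 of the 9 had an unadjusted p under 0.05 (0.426% of all classes). For MMERVK10C-int WT minus mutant was 0.55 in naïve (95% interval -0.16 to 1.26, limma, adjusted p = 0.999) and 0.11 in primed ESCs (95% interval -0.59 to 0.82, limma, adjusted p = 0.996). The exact permutation test gave p = 0.3 and p = 1. In naïve ESCs all 3 same-numbered pairs were higher with WT TET2, by 0.61, 0.19 and 0.85, but without WT naïve library 3 the difference was 0.23. For RLTR10C the differences were 0.35 and 0.01 (exact permutation test, p = 0.5 and p = 1), and 0.074 in naïve ESCs without WT naïve library 3. On median-of-ratios factors the naïve difference of MMERVK10C-int was 0.50 with a standard error of 0.17 (limma, adjusted p = 0.603). As deposited that standard error was 0.34. For RLTR10 the rescaled naïve difference was 0.47 with a standard error of 0.19 (limma, adjusted p = 0.603). Unadjusted p-values were not counted on that scale.

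RLTR10 and RLTR10-int showed the largest differences between rescue lines among the 9 classes in primed ESCs and over both media. RLTR10 was higher with WT TET2 by 0.51 in naïve and 0.71 in primed ESCs, in 6 of 6 same-numbered pairs, by 0.66, 0.59 and 0.29 in naïve and 0.98, 0.52 and 0.64 in primed ESCs. RLTR10-int was higher by 0.46 and 0.62, also in 6 of 6 pairs. The primed difference of RLTR10 was 0.40 without WT primed library 3, 0.41 without mutant primed library 1 and 1.07 without mutant primed library 3, and that of RLTR10-int was 0.40 without WT primed library 3. As deposited, their WT and mutant libraries did not overlap in naïve ESCs, which held for 2 of the 9 classes against 5.22% of all classes. In primed ESCs 0 of 9 did not overlap against 3.41%. On the rescaled reads RLTR10-int overlapped in naïve ESCs, whereas RLTR10, MMERVK10C-int, RLTR10B and RLTR10C did not. In primed ESCs RLTR10 and RLTR10-int then did not overlap. Shares over all classes were not counted on the rescaled reads. Averaged over media the differences were 0.61 for RLTR10 (95% interval 0.13 to 1.10) and 0.54 for RLTR10-int (95% interval 0.15 to 0.93), with an adjusted p from limma of 0.999 for both. The exact permutation test within media, run for each of the 9 classes, gave p = 0.04 for RLTR10, 0.01 for RLTR10-int and 0.05 for RLTR10A. With a block for replicate number these averages had an adjusted p of 0.00380 and 0.00710 from limma, and without the libraries numbered 3 of 0.00599 and 0.0203, each below the 2-fold limit of a call. The numbers pair the libraries in naïve ESCs, where the blocked adjusted p was 0.204 and 0.232, but not in primed ESCs. As deposited, RLTR10A went the other way in all 6 pairs, by 0.03 to 0.19 lower with WT TET2, with averages of -0.17 in naïve and -0.13 in primed ESCs (limma, adjusted p = 0.999 and 0.996). On the rescaled reads primed pair 3 reversed, at 8.68 with WT and 8.37 with mutant TET2. The primed means of RLTR10A were then 8.73 and 8.79.

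Over the 9 classes the median difference between WT and mutant TET2 was 0.35 in naïve ESCs, with 8 of 9 higher, and 0.11 in primed ESCs, with 6 of 9 higher. Over all 939 classes the medians were 0.06 and -0.06, and 59.7% and 39.2% were higher. After rescaling by median-of-ratios factors the medians of the 9 were 0.31 and 0.18, with 8 of 9 higher in both media, and 52.2% and 49.8% of all classes were higher. For the interaction the median over all classes was 0.11 as deposited and 0.00 after rescaling. Markers of a 2-cell-like state also differed between the lines. The 3 of 4 markers found in the gene table, *Zscan4c*, *Zscan4d* and *Usp17la* (listed as *Dub1*), summed to 5.83 to 8.03 RPM in WT naïve, 11.0 to 20.2 in mutant naïve, 2.96 to 6.51 in WT primed and 10.6 to 57.6 in mutant primed libraries, with none at 0. Their part in the differences between lines was not tested, and in bulk RNA fewer cells of a type and less RNA per cell cannot be told apart.

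Differences taken within a library do not depend on its size factor, apart from the effect of the transformation on low counts. RLTR10C minus MMERVK10C-int was -3.20, -3.01 and -3.23 in WT naïve, -2.89, -3.06 and -2.89 in mutant naïve, -2.87, -3.04 and -3.12 in WT primed and -2.59, -2.89 and -3.23 in mutant primed libraries. Its SD within a group was 0.12, 0.10, 0.13 and 0.32, against 0.56, 0.31, 0.31 and 0.74 for MMERVK10C-int alone as deposited and 0.18, 0.18, 0.12 and 0.37 after rescaling by median-of-ratios factors. On the rescaled reads the SDs were thus close, and that of WT primed was not the larger for MMERVK10C-int alone. In reads, 11.2 ± 0.90, 12.8 ± 0.85, 12.3 ± 1.08 and 13.4 ± 2.87 (SD, n = 3) fell in RLTR10C for every 100 in MMERVK10C-int. Between media this quantity differed by -0.14 in the WT line and -0.04 in the mutant line (exact permutation test, p = 0.3 and p = 0.9). Between lines it differed by -0.20 in naïve and -0.10 in primed ESCs (exact permutation test, p = 0.2 and p = 0.7).

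RLTR10D read against RLTR10C, a comparison chosen after the values were seen and given without a test, separated the media. It was -0.02, 0.26 and -0.17 in WT naïve and 0.14, 0.47 and 0.05 in mutant naïve libraries, but -2.29, -2.43 and -2.22 in WT primed and -2.06, -2.67 and -2.65 in mutant primed. For every 100 reads in MMERVK10C-int there were 11.5 ± 2.75 and 14.9 ± 1.37 in RLTR10D in the naïve groups and 2.34 ± 0.27 and 2.40 ± 1.11 in the primed groups (SD, n = 3, WT first). RLTR10E minus RLTR10C had a range of 0.14 to 0.92 in the naïve libraries and of -1.04 to -0.41 in the primed ones. RLTR10-int minus MMERVK10C-int averaged -1.33 and -1.24 in naïve and -1.90 and -2.41 in primed ESCs, and WT naïve library 3 lay within the range of the primed libraries.

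**Figure D4:**
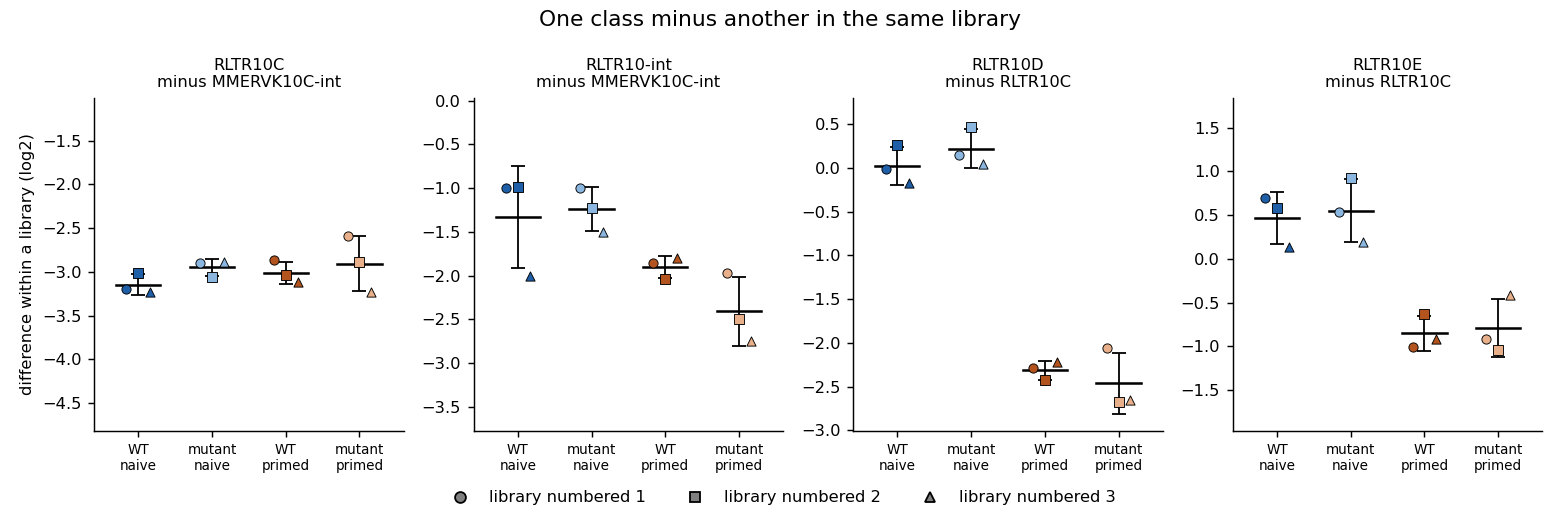
Difference between the deposited values of 2 classes in the same library (y axis, log2, each panel spanning 3.8 units) in the 4 groups, with 1 point per library, means and SD (n = 3). RLTR10C minus MMERVK10C-int stays between -3.23 and -2.59 in all groups, whereas RLTR10D minus RLTR10C runs from -0.17 to 0.47 in naïve libraries and from -2.67 to -2.06 in primed libraries.

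The likeness of 2 classes was measured as the root-mean-square distance between their 12 values, each centred on its own mean, which describes these libraries and shares their depth and scaling. For MMERVK10C-int, whose own values deviate from their mean by a root mean square of 0.47, the nearest classes outside the 9 were MERVL_2A-int at 0.16, MER103 at 0.16 and Tigger9b at 0.17. RLTR10C ranked 5 of 938 at 0.18, and the other members ranked 230 to 936. Seen from RLTR10C, MMERVK10C-int ranked 19, and the nearest class was Lx2B at 0.12. Rescaled by median-of-ratios factors RLTR10C again ranked 5 for MMERVK10C-int, whose own deviation was then 0.29. RLTR10 and RLTR10-int were close to each other at 0.20, at rank 1 of 938 seen from RLTR10. Seen from RLTR10-int, RLTR10 had rank 2, behind the IAP class IAPLTR2_Mm, also at 0.20. RLTR10D was nearest to IAP-d-int at 0.24 and lay 1.26 from MMERVK10C-int.

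Among other ERVK classes IAPEz-int, an internal region of IAPs, was read against MMERVK10C-int. MMERVK10C-int minus IAPEz-int within a library was -4.82 ± 0.44 in WT naïve, -4.18 ± 0.52 in mutant naïve, -3.84 ± 0.17 in WT primed and -2.19 ± 0.29 in mutant primed (SD, n = 3). The difference between lines of this quantity was -1.14 over both media. It is given without a p, since IAPEz-int was chosen for a difference between lines. The study reported IAPEz elements alone as significantly differing between these rescue lines in the same RNA-seq. Taken as a group, repeats regulated by SETDB1 were higher there with WT than with mutant TET2. For RLTR10C the study reported that expression did not depend on TET2 catalysis. Between media MMERVK10C-int minus IAPEz-int differed by -1.48. This too is given without a p, since the study had reported stronger activation of IAPs in naïve than in primed ESCs. In these values MMERVK10C-int moved less than IAPEz-int in both comparisons. Counted by class, 0 of the 9, 3 of 16 IAP and 0 of 5 ETn/MusD classes were called between lines in primed ESCs. The share over all 939 classes was 0.319%. In naïve ESCs 0 of 16 IAP classes were called between lines, and 0% of all classes. IAPEz-int itself was 1.18 higher with WT TET2 in naïve ESCs (limma, adjusted p = 0.773) and was not called there. Over both lines 2 of the 9, 7 of 16 IAP and 0 of 5 ETn/MusD classes were called between media, all higher in naïve ESCs. Of all 939 classes 38 (4.05%) were called in that comparison, 27 of them higher in naïve ESCs. The median differences between media were 0.33, 0.91 and -0.09, beside 0.00 for all classes.

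A list of 33 genes of ERV silencing was read in the same libraries, with all 33 tested among 14185 genes. Over both lines 1 of them was higher in naïve ESCs and 14 in primed ESCs, at an adjusted p under 0.05. Of all tested genes 51.8% were called in this comparison, and their split by direction was not counted. The gene of the list that was higher in naïve ESCs was *Chaf1b*, a subunit of the CAF-1 histone chaperone, by 0.81 (limma, adjusted p = 9.19e-05). The genes with the largest differences were the DNA methyltransferase cofactor *Dnmt3l*, the DNA methyltransferases *Dnmt3b* and *Dnmt3a*, *Tet2* and *Trim28*, at -5.18, -2.33, -1.10, -1.71 and -1.01. *Setdb1* itself was lower by 0.44 (limma, adjusted p = 0.0472). Between the rescue lines *Tet2* was the 1 gene of the list called in naïve (0.0987% of all genes) and in primed ESCs (0.254%), and over both media *Atf7ip*, which encodes a partner of SETDB1, was also called, at 0.65 higher with WT TET2 (limma, adjusted p = 0.0478). Whether these genes have a part in the values of the 9 classes was not tested.

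**Figure D5:**
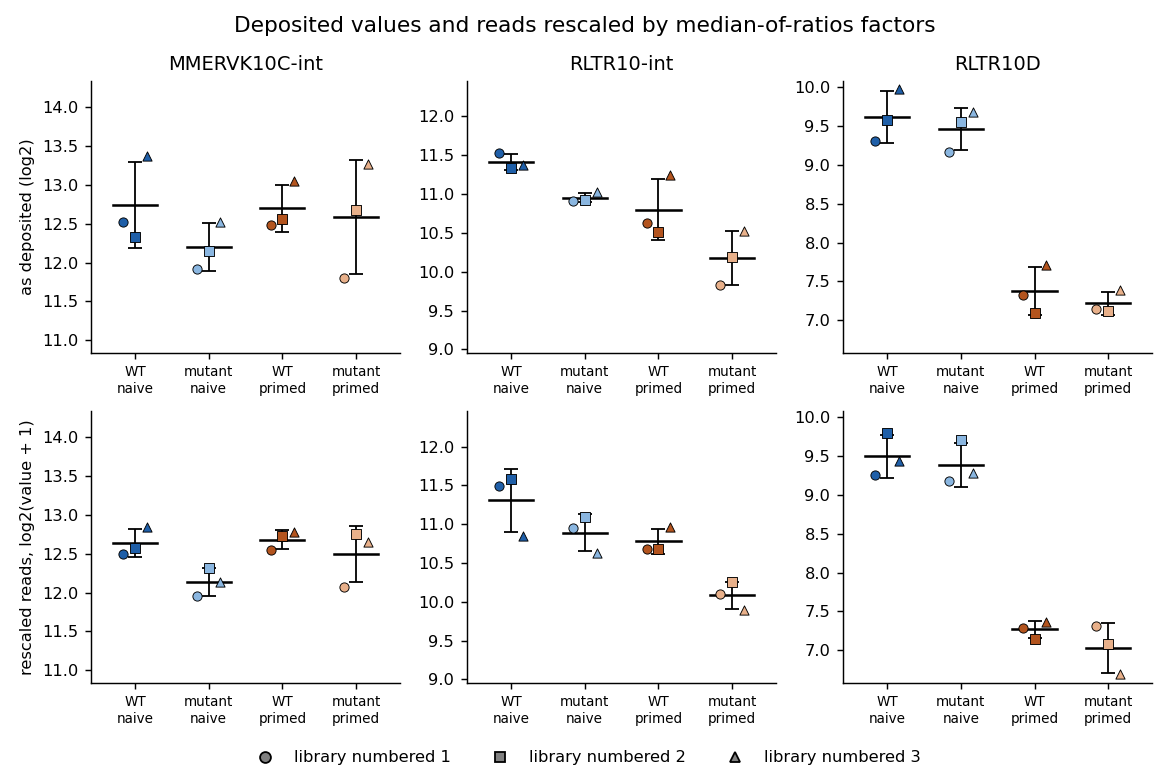
Values of 3 classes in the 4 groups as deposited (upper row, log2) and as reads rescaled by median-of-ratios factors (lower row, log2(value + 1)), each panel spanning 3.5 units, with 1 point per library, means and SD (n = 3). The libraries numbered 3 (triangles) drop relative to the others after rescaling, while RLTR10D keeps its separation between naïve and primed ESCs.

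The scaling changed the order of libraries within groups more than the differences between groups. For RLTR10D naïve minus primed was 2.23 with WT and 2.36 with mutant TET2 after rescaling, and for RLTR10E it was 1.16 and 0.96. For RLTR10-int it was 0.53 and 0.81, and for MMERVK10C-int -0.04 and -0.36. With WT minus mutant averaged over media, RLTR10 was at 0.64 and RLTR10-int at 0.56, with an adjusted p from limma of 0.0643 and 0.0932.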

How the data were processed

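Poly(A) mRNA libraries were non-directional and sequenced single-end, so strand was not known. Per the methods of the study, the authors trimmed reads with Trim Galore 0.3.3, aligned them to mm9 with TopHat 2.0.9, placing a read with several equally good positions at one of them at random, and pooled reads per RepeatMasker class. The deposited values are log2 values from a variance-stabilising transformation of counts divided by size factors. Random placement lets reads move between near-identical classes and copies.

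Inverting the transformation gave whole reads for 100% of values (tolerance 0.1 reads). Classes and genes with a mean at least 1 above the lowest value of their table were tested with limma 3.58.1 (R 4.3.3) with an intensity trend, in 1 fit of all 12 libraries, with Benjamini-Hochberg adjustment over all 939 classes or 14185 genes. For classes, calls combined adjusted p-values below 0.05 with differences above 1 in size, and for genes the p alone decided. Exact permutation tests, two-sided, were run for single values. On simulated data for WT minus mutant in naïve ESCs, 50 of 50 classes changed 4-fold among 939 were recovered, with 2 others called. The simulated classes shared the same dispersion, and the changed ones were picked among those with more reads. They were scaled by median-of-ratios factors, so the recovery does not measure power for smaller changes in the deposited values. The labels do not say whether replicates came from separate cultures, so p-values measure the spread between these libraries, which may be technical. Same-numbered libraries deviated together in naïve ESCs (correlations of 0.42, 0.29 and 0.49 over classes) and between media in the WT line (0.13, 0.16 and 0.30), which was taken as pairing. In the other comparisons at least 1 pair was under 0.1. The pairing in the WT line rested on the deposited repeat values. There the correlation of pair 1 was 0.088 on median-of-ratios factors, and over genes the correlations were 0.22, 0.14 and -0.016.

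The members, gene lists, markers and tests were chosen with earlier results of these data known. Named outside classes were the 3 nearest to MMERVK10C-int, and named genes were *Setdb1*, *Trim28*, *Tet2* and at most 5 of the called silencing genes. IAP-d-int, IAPLTR2_Mm, Lx2B and *Atf7ip* were named after their values were seen. Leaving out the libraries numbered 3, the block with median-of-ratios factors and the rescaled distances were also chosen then. Marker sums not given in the report were 488 to 1551 RPM (gene reads scaled as in the report) for the naïve-state list, 54.2 to 1085 for the primed-state list, 2.83 to 6.74 for primitive endoderm, 1.68 to 14.3 for trophoblast and 1.17 to 7.47 for fibroblasts. Amplicons were found by exact primer matches in mm9, on either strand, with bisulphite primers matched to converted sequence. Promoter windows were from RefSeq (GRCm38.p6). Figures used matplotlib 3.10.9, and other steps numpy 2.4.6 and pandas 2.3.3 under Python 3.11.15.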

Additional observations from a re-analysis of the deposited data

How the results depend on the processing

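Alternatives were 2 other filters, no intensity trend, 3 other scalings, voom with and without ribosomal classes, fits of the 6 libraries compared, no limit on the difference, a replicate block, and leaving out each library, plus 2 chosen after seeing the data. Of the 9 classes 0 were called between rescue lines or for the interaction in any of them. Between media the number of the 9 called fell from 2 to 1 in the WT line with no filter and from 2 to 1 over both lines with the size factors of the gene table, and rose from 1 to 2 in the mutant line without all libraries numbered 3. Leaving out 1 library gave 1 to 2 in the WT line, 1 to 3 in the mutant line (3 without mutant primed library 3) and 1 to 2 over both. With no limit on the difference 3 of the 9 passed over both lines, against 2.

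For MMERVK10C-int naïve minus primed in the WT line was -0.046 centred on the median class, -0.044 on median-of-ratios factors, -0.12 on gene-table factors and -0.27 to 0.25 with 1 library left out. With 1 library left out naïve minus primed in the mutant line ranged from -0.78 to -0.047, and WT minus mutant from 0.23 to 0.76 in naïve and from -0.28 to 0.46 in primed ESCs. RLTR10C gave -0.0012 for WT minus mutant in primed ESCs when centred and -0.23 to 0.19 with 1 library left out, and -0.37 to 0.047 for naïve minus primed in the WT line. RLTR10C minus MMERVK10C-int ranged from -0.27 to 0.052 for WT minus mutant in primed ESCs and from -0.20 to 0.11 for naïve minus primed in the mutant line. The cause was not tested.

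The replicate block left the count of the 9 called at 2, 1 and 2 between media and 0 between lines, while classes called among all 939 rose from 22 to 41 in the WT line, from 32 to 43 in the mutant line and from 0 to 1 between lines in naïve ESCs. In the WT line the count over all classes was also 41 on median-of-ratios factors, 39 with voom, with or without ribosomal classes, 35 with the 6 libraries alone and 51 without the libraries numbered 3. It was 19 with no filter and 58 without those libraries in the mutant line, and 58 with voom and 68 with no limit on the difference over both lines, against 38. With the block on median-of-ratios factors the counts were 46, 49 and 54. Leaving out 1 library gave as few as 8 in the WT line and 11 in the mutant line.

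RLTR10B, with 34 to 141 reads, is the class in which counting error weighs most. An exact p could not fall below 0.1 in 1 comparison of 3 libraries against 3, or below 0.005 in a test over both media or both lines.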
